A study of Mus musculus with 4 samples.

Results

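The 9 genes described here make, break down, bind or sense hyaluronan, the long sugar polymer of the extracellular matrix: the hyaluronan synthases Has1, Has2 and Has3, the hyaluronidases Hyal1 and Hyal2, the matrix partners versican (Vcan) and Tnfaip6 (TSG-6), and the receptors Cd44 and Lyve1. They were picked by symbol from the 32285 genes of the deposited matrices, and all 9 were present. Has2 was the gene around which the set was chosen, because it stood among the highest ratios in tumor cells of ganciclovir-treated hosts, so its level in those cells is given as a description and not as a result of a test.

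Hyaluronan is extruded directly from the plasma membrane by the synthases, of which Has2 is the main form in mesenchymal cells, and is cut by hyaluronidases at the cell surface and in lysosomes. Versican binds the polymer and holds water in the matrix, while TSG-6, an inflammation-induced protein, transfers protein chains onto it. CD44 is the main receptor on tumor and immune cells, LYVE-1 is a receptor of lymphatic endothelium and of some tissue macrophages, and pancreatic carcinoma is known for a matrix rich in hyaluronan.

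Single-cell RNA sequencing was performed on orthotopic pancreatic tumors grown from KPC cells, a mouse pancreatic carcinoma line, in mice labelled C57BL/6 and 7 months old and kept on a high-fat diet. The 4 groups of 1 library each were compared. Pdgfrb-TK hosts express thymidine kinase under the Pdgfrb promoter, so that ganciclovir (GCV) kills dividing cells that use this promoter, pericytes included; they were given GCV (Pdgfrb-TK/GCV) or the vehicle phosphate-buffered saline (Pdgfrb-TK/PBS). Wild-type hosts were given D-CAN, a peptide that homes to adipose-type stromal cells and kills them (D-CAN), or vehicle (WT/PBS). The cells of several tumors went into each library, so no group has a replicate, no test was possible, and every interval given covers counting error alone.

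After removal of cells with under 200 detected genes, 44554 cells remained, between 10178 and 12280 a library, with median depths of 4514.5 to 7421 unique molecular identifiers (UMIs, each standing for 1 captured transcript). Cells with at least 3 markers of 1 class, and more of it than of any other, formed the 10 classes used here (34894 cells), while 9660 cells stayed unassigned. Cells with over 20% mitochondrial UMIs made up 4.48% of the Pdgfrb-TK/GCV library and 29.3% of the D-CAN library. KPC tumor cells numbered 6463, 6935, 3499 and 5446. Values by library are always listed in this order: Pdgfrb-TK/GCV, its control Pdgfrb-TK/PBS, then D-CAN, then its control WT/PBS. Their epithelial markers summed to between 5942 and 8367 CPM (UMIs scaled to a total of 1000000 per library and class), with 7 or 8 of 10 markers found in at least 10% of the cells. Cancer-associated fibroblast (CAF) marker cells numbered 302, 518, 1333 and 2209. Pairs of libraries shared 26 to 42 cell barcodes, at most 0.389% of the smaller library.

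The cells that held the synthase transcripts differed between the libraries. Tumor cells held 85.4%, 67.5%, 70.4% and 19.5% of all Has2 UMIs. CAF-marker cells held 1.99%, 26.4%, 19.3% and 74.5%. By share of UMIs, Has2 was thus mostly a tumor cell transcript in 3 libraries and mostly a CAF transcript in WT/PBS. By CPM, Has2 was higher in CAF-marker cells than in tumor cells in every library except Pdgfrb-TK/GCV. Has1 lay with the CAF-marker cells in the wild-type model (88.1% of UMIs with D-CAN, 91.7% in its control), and Has3 with the tumor cells in every library, from 76.9% in WT/PBS to 91.6% in Pdgfrb-TK/PBS. Vcan was split between both: its share from tumor cells was 52.5%, 33.4%, 28.4% and 16.7%, and its share from CAF-marker cells 16.3%, 46.2%, 56.0% and 67.5%. Tnfaip6 came mostly from CAF-marker cells outside the Pdgfrb-TK/GCV library (66.7%, 89.4% and 89.9%). In Pdgfrb-TK/GCV tumor cells held 32.0%, macrophages 25.7% and CAF-marker cells a share between these values. Such shares move with the number of cells of each class as well as with the transcript level per cell.

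**Figure D1:**
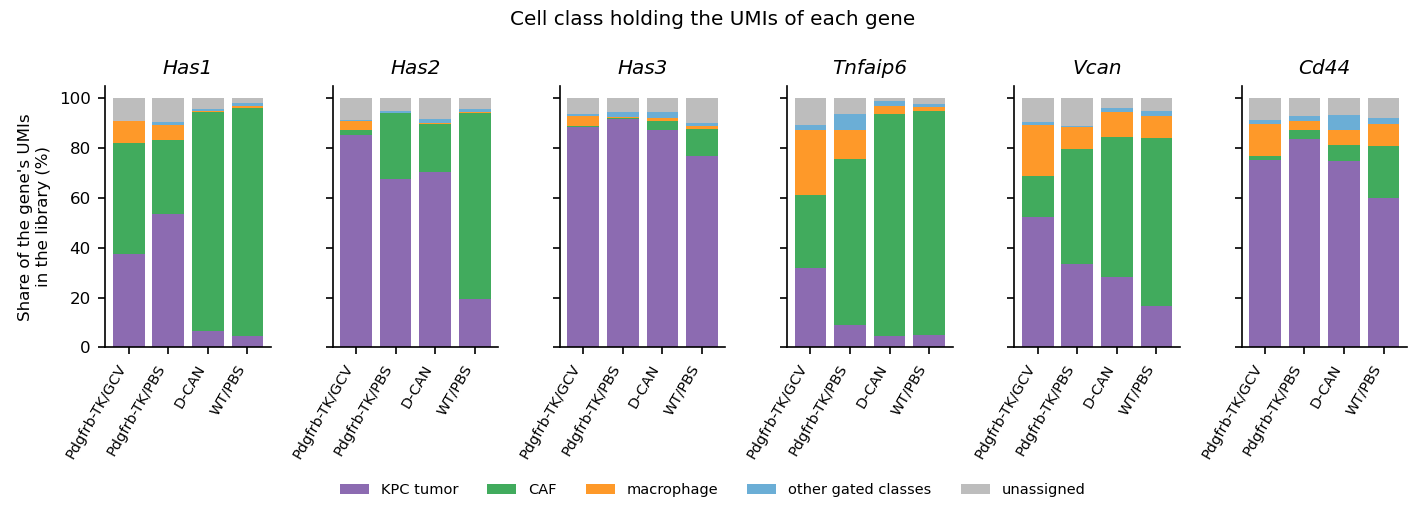
Share (%) of each gene's UMIs found in KPC tumor cells, CAF-marker cells, macrophages, all other gated classes and unassigned cells, 1 stacked bar per library. Has2 is held mostly by tumor cells except in WT/PBS, where CAF-marker cells hold 74.5%, and Has1 by CAF-marker cells in D-CAN and WT/PBS.

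Within tumor cells, Has2 (chr15:56665627-56694539, minus strand, GRCm38) was the gene on which the set was chosen. Pdgfrb-TK/GCV tumor cells held 54.3 CPM (95% counting interval 52.9 to 55.8), against 3.83 CPM (3.39 to 4.30) in their PBS control. The D-CAN library held 26.6 CPM (25.6 to 27.7), against 4.69 CPM (4.29 to 5.13) in its PBS control. Both PBS libraries were low and both treated libraries high. The level was 14.2-fold higher (12.6 to 16.1) in Pdgfrb-TK/GCV than in Pdgfrb-TK/PBS and 5.68-fold higher (5.15 to 6.27) in D-CAN than in WT/PBS, while the PBS libraries differed by 1.23-fold. By the log2 ratio with 1 CPM added, Has2 ranked 4 of 8884 genes in the GCV comparison, below the immunoglobulin genes Igkc, Ighm and Ighg2c, and 80 of 8987 in the D-CAN comparison. Genes with at least 100 UMIs in both libraries of a pair together and 10 CPM in the higher one were compared. Has2 met the 10 CPM limit in each treatment pair only through the treated library. Among the 8653 genes compared in both models, 269 were past a 2-fold higher level with GCV and 735 with D-CAN, and 44 of them, Has2 included, in both. These made up 16.4% of the 269, where 8.49% of all 8653 genes were past it with D-CAN, and 5.99% of the 735, where 3.11% were past it with GCV. Each treated library has its own PBS library, so no control is shared.

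The transcript was concentrated in few cells. Has2 was detected in 25.6% of tumor cells of Pdgfrb-TK/GCV, 2.67% of Pdgfrb-TK/PBS, 15.6% of D-CAN and 4.15% of WT/PBS. Cells were then thinned to 2000 UMIs, and the 679, 728, 210 and 561 tumor cells with under 2000 UMIs were left out. These shares were then 8.26% (exact Clopper-Pearson interval 7.57 to 9.0), 0.886% (0.668 to 1.15), 4.07% (3.42 to 4.81) and 0.942% (0.690 to 1.25), with both treated libraries still above both PBS libraries. Cells with 5 or more Has2 UMIs numbered 362, 5, 178 and 21, and the highest cell held 54, 11, 42 and 23 UMIs. A share of 50% of the tumor Has2 UMIs lay in 4.64% of the tumor cells in Pdgfrb-TK/GCV and 2.43% in D-CAN, so the level of the class described a minority of its cells.

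Has2 was also seen in cells that should lack it. In T, NK and B cells together it measured 16.7 CPM, 0, 7.60 and 0 (19, 0, 29 and 0 UMIs in 383, 72, 732 and 47 cells). The thinned share of cells with a Has2 UMI was 3.92% (1.71 to 7.58) with GCV and 0.633% (0.173 to 1.61) with D-CAN, of the 204 and 632 cells deep enough to be thinned. Median depths before thinning, over all these lymphocytes, were 2046 and 3477 UMIs, against 12560 and 20532 in tumor cells. In Pdgfrb-TK/GCV the upper bound of the lymphocyte share thus reached just past the lower bound of the tumor share. For the 0 UMIs of the PBS libraries, 3 counts would correspond to 28.2 and 15.9 CPM. The tumor cell level lay above the upper bound of the lymphocyte interval in both treated libraries (26.1 and 10.9 CPM). These bounds take the UMIs as independent, but the 19 and 29 UMIs lay in only 12 and 9 cells. Macrophages held 220 Has2 UMIs in Pdgfrb-TK/GCV (15.0 CPM) and 0 in Pdgfrb-TK/PBS, 10.1-fold higher when the 0 is set at 3 counts. This ratio is not the lower bound of a counting interval. Macrophages of the wild-type model held 2.89 and 1.84 CPM. Within the macrophages of Pdgfrb-TK/GCV, 158 of the 220 UMIs lay in cluster 14 (C1qb, Lyz2, Fcer1g; 221 cells), at 52.1 CPM (44.3 to 60.9), the level of the tumor cells, while clusters 7 and 10 held 3.78 and 3.33 CPM, below the lymphocytes. The class value of 15.0 CPM thus described none of the clusters. Epithelial markers summed to 1881 CPM in T or NK cells and 1406 CPM in B cells of Pdgfrb-TK/GCV, and to 1087 and 635 CPM in D-CAN. The part of free RNA or doublets in these levels was not tested. The B cell markers, Ighm included, summed to 48.5, 3.13, 35.4 and 0.790 CPM inside the tumor class, and the CAF markers to 36.4, 50.9, 67.3 and 127 CPM.

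Most tumor cells fell into 7 clusters with epithelial markers, and Has2 was unevenly spread over them. Tumor cells in other clusters are not in the cluster levels. They included 1547 in cluster 2, led by hemoglobin genes, and 786 in cluster 3, led by mitochondrial genes. It was highest in cluster 13 (leading genes Piezo2, Pcdh9, Lingo2) at 134, 32.5, 96.6 and 33.7 CPM. Cluster 0 (Mmp10, Erc2, Ghr, Kcnq5, Dkk2) measured 92.0, 19.1, 56.4 and 13.6 CPM, and cluster 1 (Phgdh, Tnnt2, Tuba1a) 38.7, 6.38, 18.0 and 2.64 CPM. Cluster 4, led by epithelial genes such as Krt7 and Elf3, stayed between 1.24 and 5.83 CPM, and cluster 5, led by the gastric-type genes Gkn2, Gkn1 and Tff1, between 0.108 and 1.82 CPM. Cluster 6 (Hnf1aos1, Pik3c2g, Tenm1) stayed between 0 and 4.81 CPM, and cluster 8, led by the pancreatic enzyme genes Ctrb1 and Prss2 and by Reg3b, between 0.662 and 11.6 CPM. The treated library was the higher one in clusters 0, 1, 4 and 13 of both models. With GCV the ratio was 4.83 (4.05 to 5.79) in cluster 0, 6.07 (4.72 to 7.93) in cluster 1, 4.71 (2.88 to 8.06) in cluster 4 and 4.13 (3.04 to 5.76) in cluster 13. With D-CAN it was 4.14 (3.67 to 4.70), 6.82 (5.21 to 9.03), 3.22 (2.14 to 4.91) and 2.87 (1.85 to 4.72), the last against only 30 WT/PBS cells. The other clusters had few Has2 UMIs. With GCV the ratio was 16.9 (4.65 to 92.5) in cluster 5 on 13 and 3 UMIs, 17.5 (2.25 to 790) in cluster 8 on 7 and 1, and 3.25 (1.54 to 7.33) in cluster 6 on 25 and 11. With D-CAN it was 0.380 (0.0344 to 2.65) in cluster 5 and 1.53 (0.274 to 5.80) in cluster 8, both within counting error, and cluster 6 held 21 and 0 UMIs.

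In clusters 0, 1, 4, 6 and 13 the GCV ratio was smaller than the 14.2 over all tumor cells, and the libraries also differed in their mix of clusters. Cluster 5, where Has2 was nearly absent, held 27.4% of tumor cells in Pdgfrb-TK/PBS and 5.74% to 7.46% elsewhere. Cluster 13, where it was highest, held 10.8%, 2.28%, 10.5% and 0.551%. With both libraries given the same mix of clusters, an alternative chosen after the data were seen, the log2 ratio was 2.14 against 3.52 for GCV and 1.79 against 2.28 for D-CAN. The direction was kept in both comparisons, and both ratios were smaller, below their counting intervals.

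**Figure D2:**
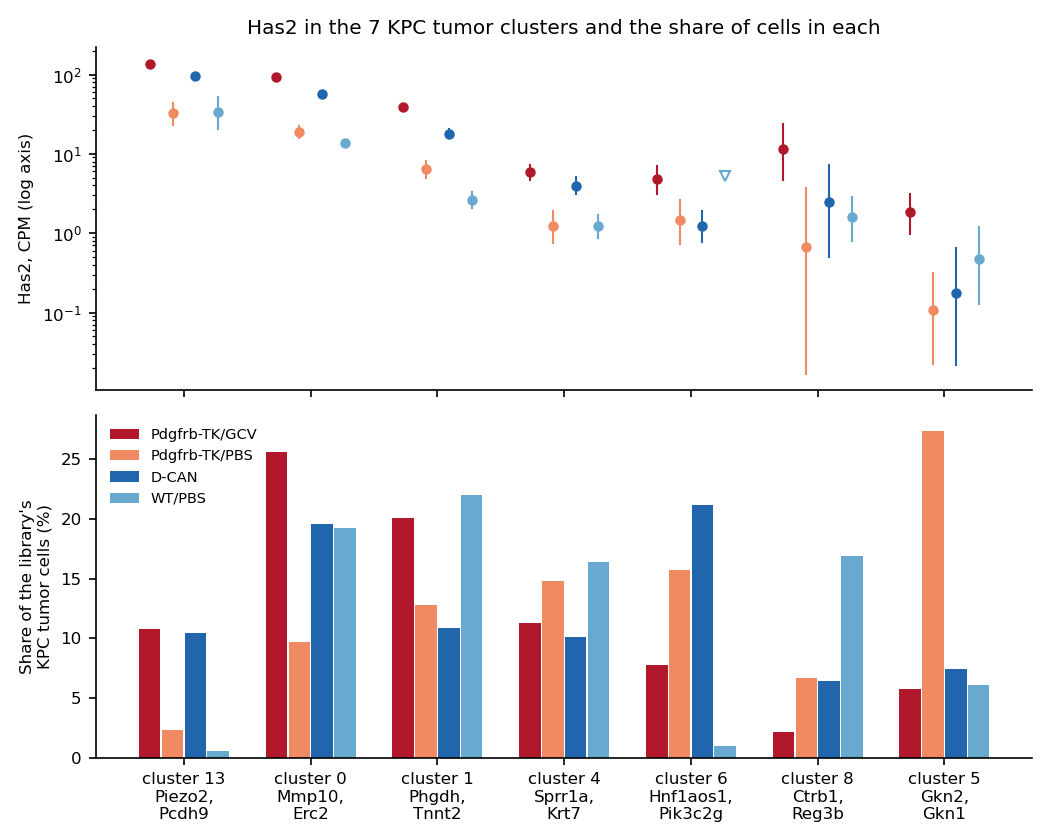
Upper panel, Has2 level (CPM, log axis) in each of the 7 tumor clusters with 95% counting intervals, 1 point per library; the open triangle marks 0 UMIs at the level of 3 counts. Lower panel, share (%) of the library's tumor cells in each cluster: cluster 5 holds 27.4% in Pdgfrb-TK/PBS, and Has2 lies above the PBS library of the same model in both treated libraries in clusters 13, 0, 1 and 4.

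Over the 27 combinations of tumor cluster and library with at least 50 cells, the 5 genes most like Has2 by Pearson correlation of log2(CPM + 1) among 12385 genes were Hey1 (0.95), Vcan (0.94), Dkk2 (0.94), Ndst3 (0.93) and Tmem95 (0.93). These points share 4 libraries and the clusters were built on the same cells, so the correlations are descriptions only. Over 26 combinations of cell class and library, the nearest of 14126 genes were Sorcs2 (0.82), Sox5 (0.81), Loxl2 (0.81), Kctd11 (0.80) and Irs1 (0.80). Dkk2, a secreted modulator of Wnt signaling, measured 98.7, 19.5, 53.5 and 34.0 CPM in tumor cells, and Hey1, a Notch target gene, 11.3, 2.33, 6.51 and 3.88 CPM. Both had their lowest value in Pdgfrb-TK/PBS and their highest in Pdgfrb-TK/GCV. Loxl2, a collagen cross-linking enzyme, ran 59.1, 24.4, 50.7 and 31.4 CPM. In the same tumor cells the antisense RNA Has2os, whose gene overlaps Has2 by 4596 bases on the other strand, was 5.40-fold higher (4.22 to 7.00) with GCV (527 against 73 UMIs) and 1.12-fold (0.943 to 1.33) with D-CAN; whether the counting kept the strands apart is not given in the sources used here.

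The other synthases were low in tumor cells. Has3 (chr8:106870242-106884566), which makes shorter chains, measured 6.26, 3.57, 5.69 and 2.08 CPM, lowest in WT/PBS. It was 1.75-fold higher (1.52 to 2.03) with GCV and 2.73-fold higher (2.33 to 3.22) with D-CAN, and Pdgfrb-TK/PBS exceeded WT/PBS by 1.71-fold, so the untreated libraries differed about as much as the GCV pair. Inside cluster 0, Has3 was not higher with GCV (8.28 against 9.53 CPM, ratio 0.869, 0.659 to 1.16) and was 4.36-fold higher (3.21 to 6.01) with D-CAN. Has1 in tumor cells measured 1.20, 0.694, 1.25 and 2.72 CPM, with ratios of 1.73 (1.24 to 2.45) for GCV and 0.459 (0.367 to 0.573) for D-CAN. Has3 and Has1 lay under the 10 CPM asked of the higher library and were not among the genes compared.

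The hyaluronidases differed little. Hyal2 (chr9:107567945-107572779), the surface-anchored enzyme, measured 20.7, 21.6, 24.2 and 15.8 CPM in tumor cells, with a ratio of 0.960 (0.899 to 1.03) for GCV and 1.53 (1.43 to 1.63) for D-CAN. Hyal1 (chr9:107576927-107581710), the lysosomal enzyme, measured 4.17, 3.42, 4.23 and 4.76 CPM, with ratios of 1.22 (1.04 to 1.43) and 0.889 (0.777 to 1.02). Neither gene reached 2-fold in tumor cells or CAF-marker cells in either treatment comparison. In both classes Hyal1 lay under the 10 CPM asked of the higher library and was not among the genes compared. Its GCV ratio in CAF-marker cells rested on 8 and 4 UMIs. Outside tumor cells and CAF-marker cells, Hyal2 was highest in endothelial cells (31.6, 34.6, 49.2 and 21.4 CPM). These values lay above the tumor cells in every library but rested on 16, 25, 52 and 77 UMIs. The first of them differed from the tumor cells within counting error. In endothelial cells Hyal2 was 2.30-fold higher (1.58 to 3.31) in D-CAN than in WT/PBS on 52 and 77 UMIs.

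Versican and TSG-6, the matrix partners, differed more in tumor cells. Vcan (chr13:89655312-89742509) measured 43.2, 9.10, 25.7 and 15.4 CPM, with both treated libraries above both PBS libraries. It was 4.75-fold higher (4.38 to 5.16) with GCV and 1.67-fold higher (1.57 to 1.78) with D-CAN. Pdgfrb-TK/PBS lay 1.69-fold below WT/PBS. Lymphocytes held 30.8 CPM of Vcan (21.4 to 42.8) in Pdgfrb-TK/GCV and 9.44 CPM (6.61 to 13.1) in D-CAN, against 1 UMI in either PBS library; the part of free RNA in the tumor cell level was not tested. In cluster 0 the ratios were 2.15 (1.86 to 2.49) and 1.30 (1.18 to 1.43), and in cluster 13 2.12 (1.67 to 2.73) and 2.04 (1.40 to 3.09). Tnfaip6 (chr2:52038009-52056686) measured 8.60, 0.272, 2.89 and 4.61 CPM, on 844, 20, 266 and 478 UMIs. Its GCV ratio of 31.6 (20.3 to 52.0) rested on a Pdgfrb-TK/PBS library that lay 16.9-fold below WT/PBS, and its D-CAN ratio was 0.627 (0.537 to 0.730). Lymphocytes of Pdgfrb-TK/GCV held 21.1 CPM of Tnfaip6 (13.5 to 31.4), more than its tumor cells, so no expression by the tumor cells is read from that ratio.

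CD44, the main hyaluronan receptor, was found in most tumor cells of every library. Cd44 (chr2:102811141-102901665) measured 535, 240, 474 and 308 CPM and was detected in 87.2%, 70.8%, 86.5% and 79.8% of tumor cells (59.5%, 37.8%, 51.9% and 43.7% after thinning). It was 2.23-fold higher (2.19 to 2.26) with GCV and 1.54-fold higher (1.52 to 1.56) with D-CAN, while Pdgfrb-TK/PBS lay 1.28-fold below WT/PBS. It followed the clusters as Has2 did, at 810 to 1083 CPM in cluster 13, 515 to 683 CPM in cluster 0 and 121 to 195 CPM in cluster 5. Within clusters 0, 1 and 13 the ratios were smaller, 1.27, 1.42 and 1.16 with GCV and 1.33, 1.23 and 1.29 with D-CAN. With the same mix of clusters the log2 ratio for GCV was 0.48 against 1.15, no longer past 2-fold, and for D-CAN 0.31 against 0.62. Among thinned tumor cells with Has2, Cd44 was detected in 68.8% (64.5 to 73.0) of 478 cells, 56.4% (42.3 to 69.7) of 55, 82.1% (74.5 to 88.2) of 134 and 43.5% (28.9 to 58.9) of 46, against 58.7%, 37.7%, 50.6% and 43.7% of cells without it. The share was thus higher in cells with Has2 in 3 libraries and not in WT/PBS.

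Of the 9 genes, 4 could be compared in tumor cells (Has2, Cd44, Vcan and Hyal2). With GCV, 3 of them, all but Hyal2, were past a 2-fold higher level on the log2(CPM + 1) scale, beside 3.68% of all 8884 genes, and their median log2 ratio was 1.64 beside 0.09 for all genes. With D-CAN, 1 of 4 (Has2) was past it, beside 9.47% of 8987 genes, with a median of 0.66 beside 0.16. The members not past it higher were not past 2-fold lower either; 5.74% and 11.5% of all genes were past 2-fold in 1 direction or the other. Between the PBS libraries, 0 of the 3 members compared were past 2-fold, beside 9.13% of 8762 genes. With GCV, Has2 and Vcan met the 10 CPM limit only through the GCV library. With D-CAN, Has2 met it only through the treated library. Has2 also decided the choice of the set, and the counts are read as descriptions.

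Few other genes of the hyaluronan pathway were past 2-fold in tumor cells, as was the case for all genes. Of 44 other pathway genes, 22 could be compared in tumor cells, with a median log2 ratio of 0.12 for GCV and 0.31 for D-CAN, beside 0.09 and 0.16 for all genes. With GCV, where 5.74% of all genes were past 2-fold, 1 was past 2-fold higher, Adamts1, a versican-cleaving protease (14.4 against 3.39 CPM, 4.24-fold, 3.70 to 4.87), and 1 past 2-fold lower, Ambp, the precursor of bikunin (9.34 against 25.2 CPM, 2.70-fold lower). Adamts1 met the 10 CPM limit only through the GCV library, and Ambp only through the PBS library. The PBS control of this pair differed from WT/PBS the other way: Adamts1 was past 2-fold lower in Pdgfrb-TK/PBS and Ambp past 2-fold higher. With D-CAN, where 9.47% of all genes were past 2-fold higher, 1 was, the receptor Hmmr, also a mitotic gene (34.5 against 15.1 CPM, 2.29-fold, 2.16 to 2.44). None of the 6 genes of sugar precursor synthesis that could be compared was past 2-fold in either comparison. Ugdh, which makes the glucuronate donor, measured 217, 224, 216 and 304 CPM, and Uap1, of the glucosamine branch, 37.5, 35.0, 35.6 and 61.9 CPM. Both had their highest level in WT/PBS, where Has2 in tumor cells was low.

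**Figure D3:**
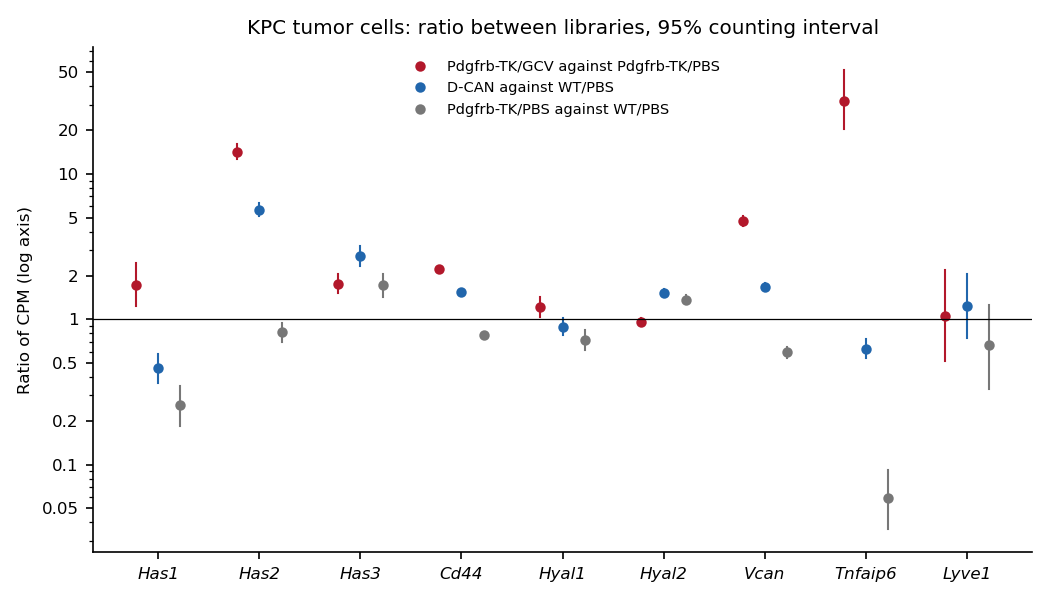
Ratio of CPM (log axis) in KPC tumor cells for the 9 genes in 3 comparisons of libraries, with 95% counting intervals. Has2 is above 1 in both treatment comparisons (14.2 and 5.68), Tnfaip6 and Has1 are above 1 with GCV and below 1 with D-CAN, and the PBS libraries differ 16.9-fold in Tnfaip6.

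CAF-marker cells were the other main source of the synthases, and here the order of the libraries was another one. The class held cells of 14 stromal subclusters, some led by markers of other classes (subcluster 5 by the keratins Krt18, Krt8 and Krt19, subcluster 9 by the pericyte gene Rgs5, subcluster 12 by Lyz2 and complement genes), so its ratios are given beside those by subcluster. Mesothelial markers summed to 262, 225, 203 and 52.3 CPM in the class. Has1 (chr17:17843323-17855205, minus strand) measured 37.3, 8.56, 114 and 215 CPM. It was 4.36-fold higher (2.89 to 6.79) with GCV and 1.88-fold lower (1.78 to 1.99) with D-CAN. The PBS libraries differed 25.1-fold (17.3 to 37.8), more than either treatment pair. When each treated library was set against the other model's control, the direction turned in both comparisons (log2 ratio -2.49 for GCV and 3.59 for D-CAN), and without cells that carried 2 or more markers of a second class, which left 34 and 126 cells, the GCV log2 ratio was 0.40 against 2.0.

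Tnfaip6 in CAF-marker cells measured 206, 44.7, 382 and 319 CPM. Like Has1 it was lowest in Pdgfrb-TK/PBS, but it was highest in D-CAN, where Has1 was highest in WT/PBS. It was 4.61-fold higher (3.86 to 5.54) with GCV, 1.20-fold higher (1.16 to 1.24) with D-CAN, and 7.14-fold lower (6.06 to 8.47) in Pdgfrb-TK/PBS than in WT/PBS. After thinning, Tnfaip6 was detected in 53.8% (25.1 to 80.8) of the 13 CAF-marker cells with Has1 in Pdgfrb-TK/GCV, 51.0% (42.7 to 59.2) of 151 with D-CAN and 49.1% (44.0 to 54.2) of 389 in WT/PBS. Among cells without Has1 these shares were 17.2% (12.8 to 22.2), 21.3% (18.7 to 24.1) and 20.4% (18.3 to 22.6), so the transcripts of both genes tended to lie in the same cells; Pdgfrb-TK/PBS had only 3 cells with Has1 after thinning.

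Because Has1 and Tnfaip6 shared cells, the sequence just upstream of each gene start is shown (RefSeq, GRCm38.p6), with 1 motif match of each in capitals. Has1, chr17:17855206-17855438, minus strand, 233 bases, with a CRE (TGACGTCA, the cyclic AMP response element) 58 bases before the end of the stretch. Tnfaip6, chr2:52037863-52038008, plus strand, 146 bases, with an AP-1 match (TGANTCA) 31 bases before its end.
Has1: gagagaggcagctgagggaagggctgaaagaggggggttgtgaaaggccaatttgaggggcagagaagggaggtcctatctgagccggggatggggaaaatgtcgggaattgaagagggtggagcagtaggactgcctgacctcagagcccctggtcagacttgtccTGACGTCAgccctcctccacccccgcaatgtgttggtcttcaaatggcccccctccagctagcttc
Tnfaip6: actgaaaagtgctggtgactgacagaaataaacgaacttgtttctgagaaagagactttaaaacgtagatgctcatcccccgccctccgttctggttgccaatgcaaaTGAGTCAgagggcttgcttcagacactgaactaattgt
Motifs were searched on both strands of 300-base windows around gene starts, of which 6 of the 9 genes had one. The CRE was in 1.79% and the AP-1 letters in 7.81% of all 32851 such windows. The Has1 window held none of the other motifs searched (the NF-kB motif, TTCNNNGAA of STAT, GGAATG of TEAD, the GC box GGGCGG and TATAAA), and the Tnfaip6 window also held the STAT, TEAD and GC box letters, found in 8.30%, 14.7% and 35.7% of windows. No match was shared between them. A match is a description of letters and not a shown binding site.

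By subcluster, high levels of Has1 and Tnfaip6 were found together in groups that differed in their libraries. Subcluster 0 (Tac1, Il1rl1, Prg4, Apod, Sema6a), with 646 of the 2209 WT/PBS cells, held 484 CPM of Has1, 688 of Tnfaip6 and 139 of Has2. Subcluster 13, 53 cells of D-CAN led by the pancreatic enzyme gene Ctrb1 and the early response gene Nr4a3, held 631 CPM of Has1 and 2064 of Tnfaip6, and subcluster 1 (Clec3b, Sned1, Tnxb, C3, Chl1), with 443 cells of D-CAN, 173 and 573 CPM. Subcluster 8 (Ereg, Serpinb2, Prr9), of which 75.9% of cells came from WT/PBS, held 368 CPM of Has1 and 301 of Tnfaip6 there, and 85.4 and 697 CPM in D-CAN. By contrast, subcluster 4 (Lrrc15, Galnt17, Fbn2), with 377 WT/PBS cells, held 24.4 CPM of Has1, 157 of Tnfaip6 and 10.8 of Has2. A sum of 4 heat shock genes (Hspa1a, Hspa1b, Dnajb1 and Hsph1), chosen after the data were seen, was 578, 165, 1024 and 4721 CPM over all CAF-marker cells, the library order of Has1, and 9810 CPM in subcluster 0. By subcluster the order was not kept. Within D-CAN the sum was 4818, 4823 and 555 CPM in subclusters 13, 8 and 1, where Has1 was 631, 85.4 and 173 CPM. The part of the heat shock genes in the Has1 levels was not tested.

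Few subclusters held at least 20 cells in both libraries of a pair. In subcluster 2 (Calca, Hbb-bs, Saa3, Slpi, Stmn2; 172 and 200 cells), Has1 was 3.16-fold higher (1.84 to 5.77) and Tnfaip6 4.74-fold higher (3.60 to 6.33) with GCV, whereas Has2 (27.1 against 37.1 CPM) and Vcan (353 against 366 CPM) differed within counting error. In subcluster 6 (Pappa2, Defb48, Eln; 24 and 61 cells), Tnfaip6 was 6.98-fold higher (3.52 to 15.4) with GCV. The higher Tnfaip6 level with GCV was thus seen in both subclusters that could be compared. With D-CAN, subcluster 6 (43 and 151 cells) had 5.10-fold more Has2 (3.58 to 7.32; 147 against 28.8 CPM) and 3.14-fold more Has1 (1.51 to 6.59), while subcluster 8 (26 and 180 cells) had 5.17-fold less Has2 (27.3 against 141 CPM) and 4.31-fold less Has1. In subcluster 5, led by keratins (39 and 153 cells), Has1 had a D-CAN ratio of 0.244 (0.177 to 0.330) and Has2 of 0.575 (0.390 to 0.826). In subcluster 3 (Cfd, Apoc1, Scd1; 106 and 165 cells) the ratios were 0.449 (0.126 to 1.32) and 1.15 (0.460 to 2.85), within counting error. Of the 4 subclusters compared with D-CAN, both synthases were thus higher in subcluster 6 and lower in subclusters 5 and 8.

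**Figure D4:**
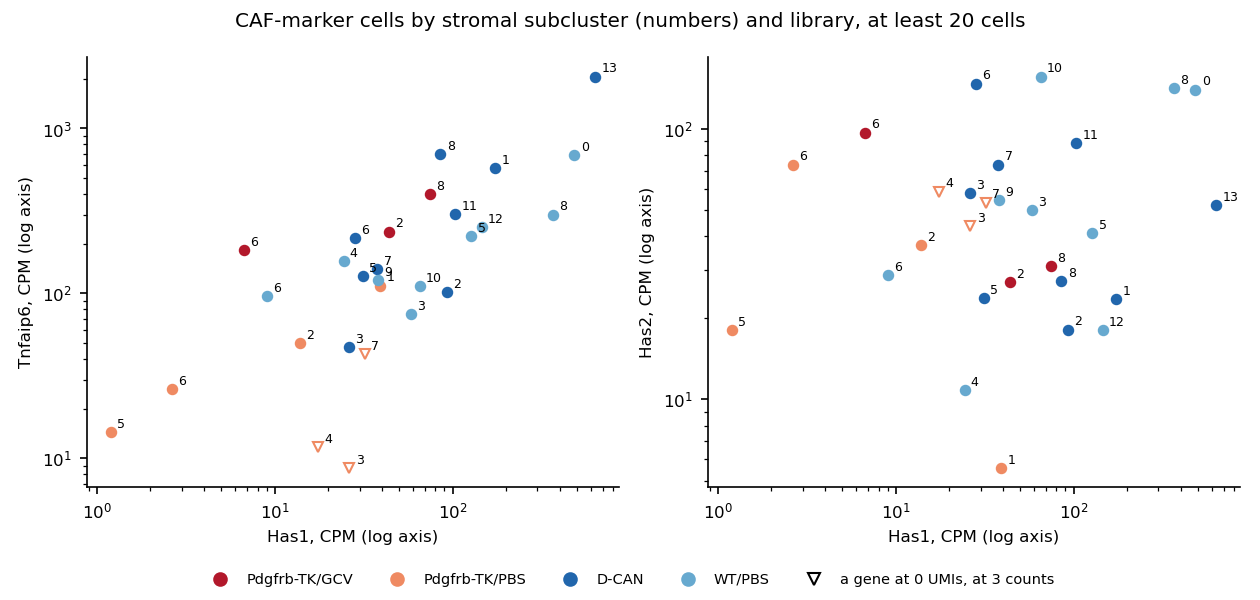
Has1 (CPM, log axis) against Tnfaip6 (left) and Has2 (right) in CAF-marker cells, 1 point per stromal subcluster (number) and library with at least 20 cells; open triangles mark a gene at 0 UMIs, drawn at 3 counts. Subclusters 0 and 13 lie at the top right of the left panel, and the Pdgfrb-TK/PBS points at its lower left.

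Has2 itself was not higher with treatment over all CAF-marker cells. It measured 32.8, 33.6, 48.9 and 70.4 CPM, with ratios of 0.975 (0.748 to 1.27) for GCV and 0.695 (0.636 to 0.760) for D-CAN, in contrast to the tumor cells of the same libraries. Vcan was abundant throughout, at 348, 283, 340 and 244 CPM, with ratios of 1.23 (1.13 to 1.34) and 1.39 (1.34 to 1.45). The GCV ratio of Vcan turned below 1 (log2 ratio -0.21 against 0.30) without cells that carried markers of a second class. Cd44 measured 317, 227, 263 and 418 CPM, 1.40-fold higher (1.27 to 1.53) with GCV and 1.59-fold lower (1.53 to 1.65) with D-CAN. Has3, Hyal1 and Lyve1 were low, at most 1.53, 4.43 and 2.38 CPM in any library.

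In CAF-marker cells 6 of the 9 genes could be compared. With GCV, 2 of 6 (Has1 and Tnfaip6) were past 2-fold higher, beside 2.05% of 7797 genes. With D-CAN, 0 of 6 were past 2-fold in either direction, beside 16.0% of 9560 genes, and between the PBS libraries 3 of 6 (Has1, Has2 and Tnfaip6) were past 2-fold lower in Pdgfrb-TK/PBS, beside 7.33% of 9522 genes. In both comparisons that used Pdgfrb-TK/PBS, Has1 met the 10 CPM limit only through the other library. Of 29 other pathway genes compared with D-CAN, 6 were past 2-fold higher, beside 10.9% of all genes, and 3 of these were versican-cleaving proteases. Adamts15 measured 133 against 12.0 CPM (11.1-fold, 9.87 to 12.6), Adamts5 228 against 62.6 CPM (3.64-fold, 3.42 to 3.86) and Adamts4 71.2 against 26.7 CPM (2.67-fold, 2.42 to 2.95). The others were Itih5, a heavy chain of the inter-alpha-trypsin inhibitor family (3.76-fold), Hmmr (3.14-fold) and the receptor Layn (2.09-fold). Adamts15 was also past 2-fold higher in Pdgfrb-TK/PBS than in WT/PBS. It was a leading gene of subcluster 1, with 89.4% of cells from D-CAN and 0% from WT/PBS. Hmmr was a leading gene of subcluster 11, with 59.6% of cells from D-CAN and 13.8% from WT/PBS. These pathway genes were not compared by subcluster, so the part of the cell mix in their ratios was not tested. Itih5 was 6.23-fold lower with GCV (6.88 against 42.8 CPM), and the cartilage proteoglycan gene Acan 2.26-fold lower, the only 2 of 27 pathway genes past 2-fold in that comparison, beside 5.31% of all genes. There Itih5 met the 10 CPM limit only through the PBS library.

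Macrophages carried versican and CD44. Vcan measured 114, 88.5, 116 and 105 CPM over the class and was split by cluster: cluster 7, led by Chil3, Arg1, Ccl6, Ccl9 and Wfdc17, held 208, 289, 380 and 139 CPM, and cluster 10, led by C1qa, Apoe, C1qb and C1qc, 32.3, 34.2, 20.3 and 16.5 CPM. In all 4 libraries the level was higher in cluster 7. Tnfaip6 measured 46.4, 12.4, 24.5 and 20.5 CPM and was 3.75-fold higher (2.52 to 5.84) with GCV and 1.20-fold (0.963 to 1.49) with D-CAN, beside the 21.1 CPM of lymphocytes in Pdgfrb-TK/GCV. The clusters differed in this. With GCV the Tnfaip6 ratio was 0.953 (0.613 to 1.56) in cluster 7. It was 16.0 (5.41 to 78.0) in cluster 10, on 254 UMIs with GCV and 3 in the PBS library. In cluster 14 it was 16.6 (2.90 to 662), on 92 and 1 UMIs. With D-CAN it was 4.57 (3.46 to 6.07) in cluster 7, 0.565 (0.337 to 0.977) in cluster 10 and 0.0845 (0.0222 to 0.230) in cluster 14. Cd44 measured 619, 378, 500 and 573 CPM, 1.64-fold higher (1.52 to 1.76) with GCV and 1.15-fold lower with D-CAN over the class. Within clusters 7, 10 and 14, however, Cd44 was 1.32-fold (1.24 to 1.40), 1.59-fold (1.37 to 1.85) and 1.28-fold (1.13 to 1.45) higher with D-CAN. Cluster 7, where Cd44 was highest, held 22.8% of macrophages in the D-CAN library and 70.7% in its control. With GCV the ratios were 1.10 (0.977 to 1.24), 1.33 (1.17 to 1.52) and 1.72 (1.47 to 2.02). Of 5 macrophage members compared with GCV, 2 (Has2 and Tnfaip6) were past 2-fold higher, beside 3.60% of 9016 genes, and 1 (Lyve1) past 2-fold lower, beside 2.03%, though Has2 lay mostly in cluster 14 and Tnfaip6 was not higher in cluster 7. In that comparison Has2 met the 10 CPM limit only through the GCV library, and Lyve1 only through the PBS library. With D-CAN, 0 of 4 were past 2-fold, beside 14.1% of 8885 genes. Neutrophils had the highest Cd44 level of the 6 classes plotted in every library, at 886, 629, 970 and 646 CPM. Their Vcan level was 73.0, 2.31, 29.3 and 108 CPM, the second value from 1 UMI.

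Lyve1 (chr7:110850607-110863239) was held by endothelial cells and macrophages. In endothelial cells (57, 156, 107 and 430 cells) it measured 103, 76.0, 387 and 126 CPM, 1.35-fold higher (0.906 to 2.01) with GCV, within counting error, and 3.06-fold higher (2.67 to 3.50) with D-CAN. The lymphatic markers Prox1, Mmrn1, Flt4, Ccl21a and Reln summed to 263, 346, 2074 and 701 CPM in the same class, also highest in D-CAN, so more lymphatic cells and more Lyve1 per cell cannot be told apart from the class sum. Of the endothelial cells with Lyve1, 26 of 28 in D-CAN and 50 of 69 in WT/PBS carried 2 or more of these markers, against 3 of 14 and 4 of 8 in Pdgfrb-TK/GCV and Pdgfrb-TK/PBS. Endothelial Cd44 measured 249, 112, 162 and 104 CPM, 2.22-fold higher (1.67 to 2.97) with GCV and 1.55-fold higher (1.29 to 1.86) with D-CAN. The epithelial markers of the tumor class summed to 2689, 3603, 1128 and 1749 CPM in these endothelial cells. The part of tumor cell RNA in their Cd44 level was not tested. Of 2 endothelial members compared with GCV, 1 (Cd44) was past 2-fold higher, beside 2.01% of 2235 genes, and of 3 with D-CAN, 2 (Lyve1 and Hyal2), beside 7.64% of 6400 genes.

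Among macrophages Lyve1 was lower in each treated library than in its PBS library. It measured 8.13, 44.5, 10.9 and 21.1 CPM, 5.47-fold lower (4.11 to 7.26) with GCV and 1.94-fold lower (1.48 to 2.56) with D-CAN. Both treated libraries lay below both PBS libraries, which differed by 2.11-fold. The Lyve1 cells were few, 35, 27, 26 and 66, and 19, 19, 24 and 47 of them carried 2 or more of the resident-type markers Folr2, Cd163, Timd4 and F13a1, against 4.39% to 9.47% of macrophages without Lyve1. Within cluster 10 the level was 10.8, 69.5, 13.3 and 35.2 CPM and within cluster 7 9.04, 40.1, 13.8 and 22.0 CPM, the same order of libraries in both clusters. Over the 26 combinations of class and library the gene most like Lyve1 was Stab1 (0.91), which codes for stabilin-1 of the receptor list. Among macrophages alone, Stab1 was past 2-fold higher in D-CAN than in WT/PBS, the opposite direction to Lyve1. Between the PBS libraries it was past 2-fold higher in Pdgfrb-TK/PBS, the direction of Lyve1.

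**Figure D5:**
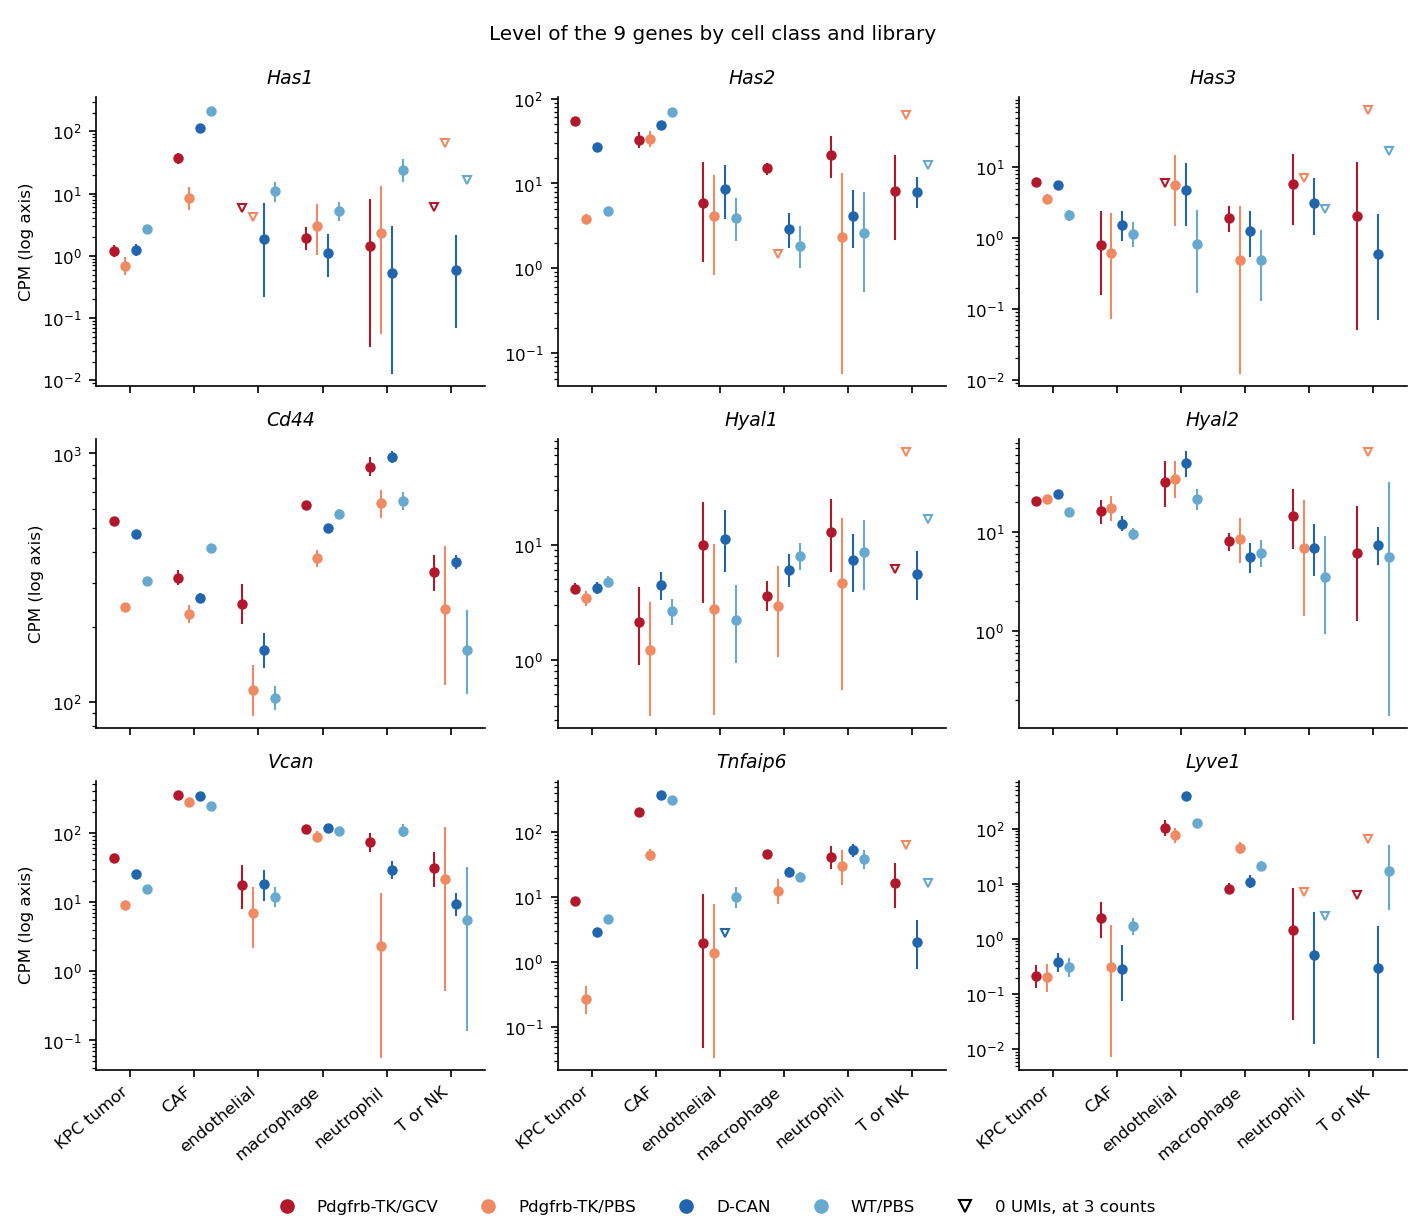
Level (CPM, log axis) of each of the 9 genes in 6 cell classes, 1 point per library with its 95% counting interval; open triangles mark 0 UMIs, drawn at 3 counts. Has2 separates treated from PBS libraries in KPC tumor cells and not in CAF cells, Lyve1 is highest in endothelial cells, and Cd44 is highest in neutrophils among these classes.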

How the data were processed

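Tumor suspensions were pooled by treatment, captured with the 10x 3' v3.1 chemistry and sequenced. The authors aligned reads to mm10 with STAR 2.6 and Cell Ranger, and deposited UMI counts per gene and cell; the matrix headers name Cell Ranger 7.0.0. From the deposited counts, cells with at least 200 genes were kept and classed by 3 or more markers of a class with no tie, and doublets were not removed. UMIs were summed per library and class and scaled to a total of 1000000 (CPM), with exact Poisson intervals for levels, exact conditional binomial intervals for ratios and Clopper-Pearson intervals for shares, all at 95% and covering counting error only. Library totals ranged from 84020317 to 155408336 UMIs. With 1 library per condition no test was run. Log2 ratios used a pseudocount of 1 CPM. Genes with at least 100 UMIs in the pair and 10 CPM in the higher library were compared, and past 2-fold counted as different. Shares of cells were also computed after thinning to 2000 UMIs, with cells under 2000 UMIs left out. Clusters came from 2000 variable genes, 10 principal components, 20 neighbors and Leiden resolution 0.8 (leidenalg 0.10.2, igraph 0.11.9, scikit-learn 1.9.0, scipy 1.17.1, numpy 2.4.6); 21 clusters and 14 stromal subclusters were found. The interval and ratio code was checked on simulated data. Named genes were the 9 genes, 44 listed pathway genes, the 5 genes most like a described gene, leading genes of described clusters and class markers; the heat shock genes and the immunoglobulin genes were named after their values were seen. The genes and lists were chosen with earlier results of these data known. Protocol text in the labels describes nuclei of another tissue, and the study's methods give an older host age than the labels, so sample facts rest on titles, characteristics and the methods.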

Additional observations from a re-analysis of the deposited data

Results flagged for a closer look

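In several classes a gene was higher with GCV than with its PBS library and lower with D-CAN than with its PBS library, with counting intervals on opposite sides of 1; with 1 library per group the difference between the models was not tested. Has1 had ratios of 1.73 and 0.459 in KPC tumor cells, and of 4.36 and 0.532 in CAF-marker cells. Cd44 had ratios of 1.40 and 0.629 in CAF-marker cells and of 1.64 and 0.873 in macrophages. In each of macrophage clusters 7, 10 and 14, however, the D-CAN ratio of Cd44 was above 1 (1.32, 1.59 and 1.28), so the opposite direction was seen only in the class sum, whose mix of clusters differed between the libraries. Tnfaip6 had ratios of 31.6 and 0.627 in KPC tumor cells, the first at a level below that of the lymphocytes, and Lyve1, on 1 to 45 UMIs, of 7.78 and 0.171 in CAF-marker cells. In each case the level in Pdgfrb-TK/PBS was below that in WT/PBS.

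The D-CAN and WT/PBS libraries also listed reporter features that no comparison used, with 1284 and 3856 UMIs; the Pdgfrb-TK matrices list no such feature.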

How the results depend on the processing

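No paired analysis was possible because each group has 1 library, and for the same reason none could be left out. Of 96 alternatives of 8 ratios, 58 stayed within the counting interval, 35 moved outside it with the sign kept and 3 changed sign; causes were not tested unless the setting itself shows them. Log2 ratios are given as GCV then D-CAN. Has2 in tumor cells (3.52, 2.28) was 3.28 and 2.52 against the other model's control, 3.15 and 2.10 as the mean of the cells' own CPM, 3.16 and 1.97 thinned, 3.79 and 2.48 with a pseudocount of 0.1, 2.22 and 1.32 with 10, and 2.14 and 1.79 at the same cluster mix. Cd44 in tumor cells (1.15, 0.62) was 0.80 and 0.98 against the other PBS library, 0.96 and 0.55 as the mean of cells, 0.98 and 0.53 thinned, 1.07 and 0.58 scaled by the median ratio, and 0.48 and 0.31 at the same mix; GCV alone moved to 1.12 with a pseudocount of 10 and 1.11 without cells of a second class. Vcan in CAF-marker cells (0.30, 0.48) was 0.51 and 0.27 against the other PBS library and -0.21 and 0.28 without second-class cells; D-CAN alone moved to 0.30 by clusters, 0.19 as the mean of cells, 0.35 thinned and 0.39 without stromal subclusters not named CAF. Has1 in CAF-marker cells (2.0, -0.90) was -2.49 and 3.59 against the other PBS library; GCV moved to 1.35 with a pseudocount of 10 and 0.40 without second-class cells, and D-CAN to -1.07 by clusters and -1.0 thinned. Scaling moved no median by more than 0.08. Depth limits Has2 in the 47 to 72 lymphocytes of the PBS libraries.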
